A study of Drosophila melanogaster with 6 samples.

Results

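Long noncoding RNAs (lncRNAs) expressed in *Drosophila melanogaster* embryos were compared between embryos maternally mutant for Raf and wild type (WT) embryos. The members were chosen by their mean level: all genes whose FlyBase symbol carries the prefix lncRNA:, apart from the dosage compensation RNAs roX1 and roX2, with a mean of at least 2 CPM over the 6 samples (CPM, expected counts scaled to a common library total). Of 1894 prefixed genes among 17714 genes in the tables, 70 were members and 1824 fell below the threshold. Below, the prefix lncRNA: is left out of the symbols. Because the mean level chose the members, their levels are a description and carry no test, whereas the difference between the groups did not enter the choice directly.

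RNA-seq libraries were made from whole, mixed-stage embryos, 3 of the *Raf926* genotype (Raf926-/- in the labels) and 3 WT. *Raf926* is a loss-of-function allele of the X-linked kinase gene Raf, and the mutant embryos came from mothers with homozygous germline clones, made with FLP recombinase, an FRT19A chromosome that also carries w, and the dominant female-sterile OvoD2. The embryos therefore lacked maternal wild-type Raf, while some inherited a paternal copy. WT was the Oregon R strain, so genotype and strain background cannot be told apart, and the labels name no age beyond egg laying for 24 h at 25 °C, which differs from the collection in the study's methods, a conflict that was not settled.

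Long noncoding RNAs are transcribed and often spliced like messenger RNAs but have no long open reading frame. Some act as RNA, as scaffolds for nuclear bodies or chromatin complexes, some serve as precursors of microRNAs or small nucleolar RNAs, and for others the act of transcription through regulatory DNA is what matters. In flies the best studied examples are the heat shock RNA Hsromega and the transcripts of the bithorax complex, where lncRNAs are transcribed among the Hox genes that specify the segments of the abdomen. Most carry only a CR number and have no known function.

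The libraries held 33275401 to 38120428 expected counts each, and 3 counts corresponded to 0.0787 to 0.0902 CPM. Raf, on the X chromosome at 2295466-2343870, was at 2539, 2935 and 2184 normalized counts in WT and at 1202, 1399 and 1546 in *Raf926*, 54.2% of WT (log2 fold change −0.88, SE 0.15, adjusted p = 0.0016, from the quasi-likelihood test of edgeR with p-values adjusted by Benjamini and Hochberg, as for all adjusted p below). The makeup of the embryos also differed: summed markers of neurons were at 513 to 726 CPM in WT and 112 to 127 in *Raf926* (5 of 6 fell), those of muscle at 2944 to 6074 and 64.4 to 436 (8 of 8 fell), midgut at 177 to 264 and 52.6 to 79.3 (4 of 4 fell) and blood cells at 472 to 692 and 64.9 to 103 (4 of 5 fell, 1 rose). Epidermal markers were at 393 to 698 CPM in WT and 2203 to 3015 in *Raf926* (4 of 4 rose), maternal transcripts at 1456 to 1801 and 2312 to 2740 (5 of 6 tested rose), germ cell markers at 198 to 266 and 303 to 329 (2 of 4 tested rose) and early zygotic genes at 303 to 431 and 177 to 302 (5 of 7 tested fell, 1 rose). Eggshell markers were below 1 CPM in sum in every sample, with Cp16 and Cp36 near 0. These differences lie between the same 2 groups as every change described below, and their part in those changes was not tested. In bulk RNA, fewer cells of a type and less RNA per cell cannot be told apart.

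Most embryonic lncRNAs were rare. Mean levels ran from 2.10 to 1461 CPM with a median of 5.53, and 50 of the 70 members were under 10 CPM while 3 exceeded 100. The members together took 0.18 to 0.296% of all counts. Just inside the threshold were CR32027 (2.10 CPM), CR32368 (2.22) and CR45570 (2.22), and just outside it CR44042 (1.98), CR32658 (1.96) and CR42839 (1.94). Some well-known lncRNAs were far below it, among them noe (1.01 CPM), sphinx (0.868), the piRNA precursor flam (0.543), acal (0.115) and the let-7 microRNA precursor let7C (0.043).

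A single lncRNA, CR42862 (FBgn0262109, 3L:224106-230964), supplied more counts than all other members together. Its 48622, 56745 and 59975 normalized counts in WT overlapped its 59318, 46065 and 42386 in *Raf926*, and its log2 fold change of −0.16 (SE 0.14, adjusted p = 0.35) did not pass the test. Its exons share 246 bases with CG33229 on the same strand. Without CR42862, the summed members were at 1057, 1013 and 1074 CPM in WT and at 828, 722 and 720 in *Raf926*. The groups did not overlap (1048 ± 31.7 against 757 ± 61.5 CPM, SD, n = 3 each). The exact two-sided permutation p was 0.1, the smallest that 3 against 3 samples allow, so it adds nothing to the lack of overlap. The sums also hold 11 members with a mean of at least 2 CPM in WT only and 10 in *Raf926* only. The rule let these in through 1 group, so no conclusion is drawn from the p. CPM leave out the TMM scaling of the normalized counts. A fit scaled by library size alone shifted the gene-wide median by −0.20 (log2), so part of the gap rests on the scaling. The sums also lean on abundant members: mean CPM fell from 179 to 93.0 for marge and from 126 to 68.2 for Hsromega. By gene, 35 members had positive and 35 negative log2 fold changes, so the sums do not show a fall of the members as a group.

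Per length, in the deposited TPM, which scale counts by effective length and library, members averaged between 0.445 and 682 with a median of 7.89. The highest mean TPM after the 2 members with an effective length under 100 bases, CR34335 and CR43264, whose TPM that length inflates, were those of marge (329.8), CR42862 (295), CR43887 (137), Hsromega (88.2), CR42491 (63.3), CR45184 (50.4), CR30055 (29.6) and CR42549 (29.5). Marge and CR42862 overlapped over the samples: marge was at 433, 457 and 429 TPM in WT and 272, 179.9 and 208 in *Raf926*, and CR42862 at 292, 331 and 387 and at 305, 239 and 213. CR30055 and CR42549 also overlapped, at 20.5 to 46.1 and 26.1 to 32.4 TPM. CR34335, the first by TPM (682), lies in an intron of DIP-alpha, was at 617, 374 and 257 normalized counts in WT and 439, 241 and 290.1 in *Raf926*, and its log2 fold change of −0.36 (SE 0.36) did not pass the test.

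The comparison of *Raf926* with WT asked which lncRNAs change in embryos that lack maternal Raf. Calls required both an adjusted p below 0.1 and a change of more than 1.5-fold, with the p-values adjusted over all 11568 genes tested, and every member was among them. Of the 70 members, 49 were called, 27 higher and 22 lower in *Raf926*, or 70%, beside 49.7% of all genes tested (22.7% higher and 26.9% lower). Among members the shares were 38.6% higher and 31.4% lower. The counts of all 3 *Raf926* samples lay outside the range of the 3 WT samples for 55 members, 78.6%, beside 68.5% of all genes, and 46 of the 49 called members were among these 55. Changes went both ways, with 35 positive and 35 negative log2 fold changes, a median of −0.05 beside −0.04 over all genes, and a range from −6.74 to 6.86. Among the called members 13 changed over 4-fold, 5 up and 8 down.

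Membership by a mean over both groups lets in genes that are high in only one of them. With group means of at least 2 CPM in both groups, 49 members remained, of which 29 were called, 17 up and 12 down, or 59.2%, beside the same 49.7% of all genes. The 11 members over 2 CPM in WT only (10 called down) and the 10 over it in *Raf926* only (10 called up) had to differ, and they are not evidence about lncRNAs as a group. Among the 49 over it in both groups, log2 fold changes ran from −2.34 to 1.96. All of the changes over 4-fold apart from that of CR45018 were among members over 2 CPM in 1 group only.

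**Figure D1:**
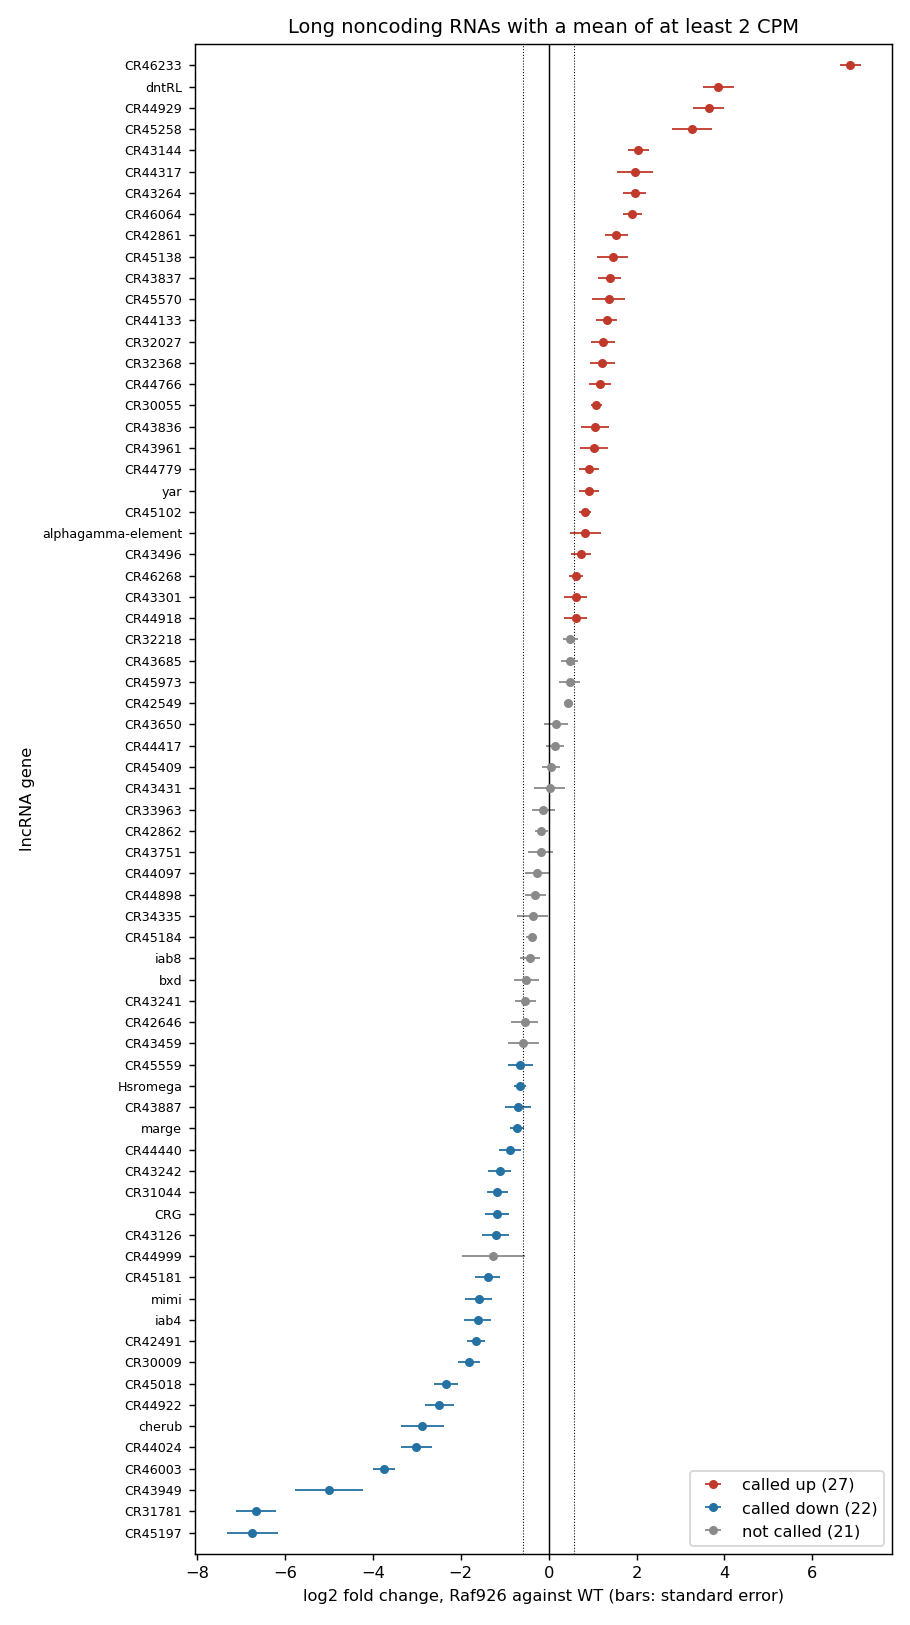
Log2 fold change of each of the 70 lncRNAs in Raf926 against WT (horizontal axis, points) with its standard error (bars), ordered by size, with dotted lines at a fold change of 1.5. The 27 lncRNAs called up are red, the 22 called down blue and the 21 not called grey, and the values run from −6.74 for CR45197 to 6.86 for CR46233.

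The largest fall was that of CR45197 (FBgn0266707, X:2675188-2676657, plus strand), whose 2 single-exon transcripts together cover 1470 bases. Its transcript length, averaged over the transcripts, was 738 bases in every sample. It was at 273, 279 and 303 normalized counts in WT and at 4.65, 0 and 3.15 in *Raf926*. WT was even and high, and *Raf926* was near 0 in every sample (log2 fold change −6.74, SE 0.59, adjusted p = 1.1e-04). All of its 1470 bases lie within exons of sgg, the kinase that phosphorylates beta-catenin in the Wnt pathway, on the same strand. sgg went the other way, from 10517, 10629 and 9782 normalized counts in WT to 21966, 19585 and 19073 in *Raf926* (log2 fold change 0.97, SE 0.09, adjusted p = 1.5e-04), so reads that the counting may have divided between the genes are uncertain. CR45197 lies 331318 bases from Raf on the same chromosome, the one selected in making the clones, and the part of a sequence difference between the strains was not tested.

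CR31781 (FBgn0051781, 2L:16869346-16878300), a spliced RNA between genes, was at 1252, 924 and 1597 normalized counts in WT. In *Raf926* it was at 15.1, 17.8 and 4.20, a loss of nearly all its signal with no overlap (log2 fold change −6.66, SE 0.45, adjusted p = 4.4e-05). CR43949 (3L:16020409-16021506) was at 262, 321 and 166 in WT and at 12.8, 10.5 and 0 in *Raf926* (log2 fold change −5.00, SE 0.77, adjusted p = 0.0011). It starts 1974 bases from Notum, which encodes an enzyme that inactivates Wnt ligands, pointing away from it, and Notum also fell (log2 fold change −1.44, adjusted p = 0.0048). An lncRNA on the opposite strand overlaps the exon of CR43949, and without strand-specific counting their reads cannot be told apart.

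CR46003 (3L:10286945-10307968) is annotated as a single exon of 21024 bases, so its 526, 470.4 and 638 normalized counts in WT were spread thinly, at a mean of 0.837 TPM. It fell to 46.5, 44.1 and 31.5 in *Raf926* (log2 fold change −3.74, SE 0.25). Its exon overlaps exons of other genes on both strands, and reads there could belong to those genes. On the small chromosome 4, CR44024 was at 153, 102 and 195 in WT and 20.9, 17.8 and 16.8 in *Raf926* (log2 fold change −3.01, SE 0.35). Both groups were separate for CR46003 and CR44024, with the WT samples spread wider than the *Raf926* ones.

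Cherub (FBgn0262972, 3R:11247631-11256123), a lncRNA known from neural stem cells, where it accumulates in tumours that lack the cell fate determinant brat, was at 315, 189 and 474 normalized counts in WT. It was at 65.1, 47.2 and 21.0 in *Raf926* (log2 fold change −2.88, SE 0.49, adjusted p = 0.0018). Every WT sample was above every *Raf926* sample, and the highest WT value was in replicate 3. Among the WT samples, replicate 3 had the highest summed markers of neurons (726 CPM) and also of muscle, blood cells, midgut and epidermis. This order therefore singles out no tissue. CR44922 (237, 162 and 323 against 52.4, 38.8 and 37.8, log2 fold change −2.48) and CR45018 (432, 411 and 648 against 115.2, 102 and 77.8, log2 fold change −2.34) showed the same order, with WT replicate 3 highest. CR45018 shares 1433 bases with exons of the inositol trisphosphate kinase gene IP3K2 on its strand, and IP3K2 rose (log2 fold change 0.82, adjusted p = 0.021).

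Among the rises, CR46233 (FBgn0267953, 3R:26637805-26639515) went from close to the floor to a moderate level. It was at 4.84, 5.84 and 5.83 normalized counts in WT and at 657, 684 and 629.6 in *Raf926* (log2 fold change 6.86, SE 0.24, adjusted p = 6.4e-06). All *Raf926* samples lay within a narrow band far above WT. Its nearest coding gene, TwdlS, 248 bases away tail to tail, encodes a Tweedle protein of the larval cuticle and was at 0, 4.87 and 0.833 normalized counts in WT and 144, 205 and 139.8 in *Raf926* (log2 fold change 6.36, SE 0.72, adjusted p = 3.1e-04).

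CR44929 (3R:6101958-6104863) was at 27.1, 17.5 and 17.5 normalized counts in WT and 344, 245 and 188 in *Raf926* (log2 fold change 3.64, SE 0.35, adjusted p = 1.6e-04). It lies 1071 bases from Gasp on the same strand, and Gasp, which encodes a chitin-binding protein of cuticle and tracheal tubes, went from 3869, 2811 and 4539 to 32044, 28169 and 17310 (log2 fold change 2.79, SE 0.27). In both genes *Raf926* replicate 3 was the lowest of the mutant samples and still above all WT samples. Summed epidermal markers were also lowest in that sample among the mutants, at 2203 CPM, and above the WT maximum of 698. Summed markers of neurons, muscle, blood cells, midgut and early zygotic genes were lowest there among the mutants too, so the order of samples singles out no tissue.

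The RNA dntRL (2R:4621118-4622481) was at 13.5, 9.74 and 10.8 normalized counts in WT and at 119.8, 168 and 211 in *Raf926* (log2 fold change 3.86, SE 0.35, adjusted p = 1.3e-04), and CR45258 was at 31.0, 31.2 and 10 and at 293, 194 and 199 (log2 fold change 3.25, SE 0.46). The groups were far apart in both. CR43144, CR44317, CR43264 and CR46064 rose by less, with log2 fold changes of 2.04, 1.97, 1.96 and 1.91, and without overlap. CR43264, 318 bases long, lies on the opposite strand within an intron of CG15765, which fell (log2 fold change −3.16, SE 0.52, adjusted p = 0.0015), from 449.9, 266 and 595 normalized counts to 30.2, 87.1 and 28.4.

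**Figure D2:**
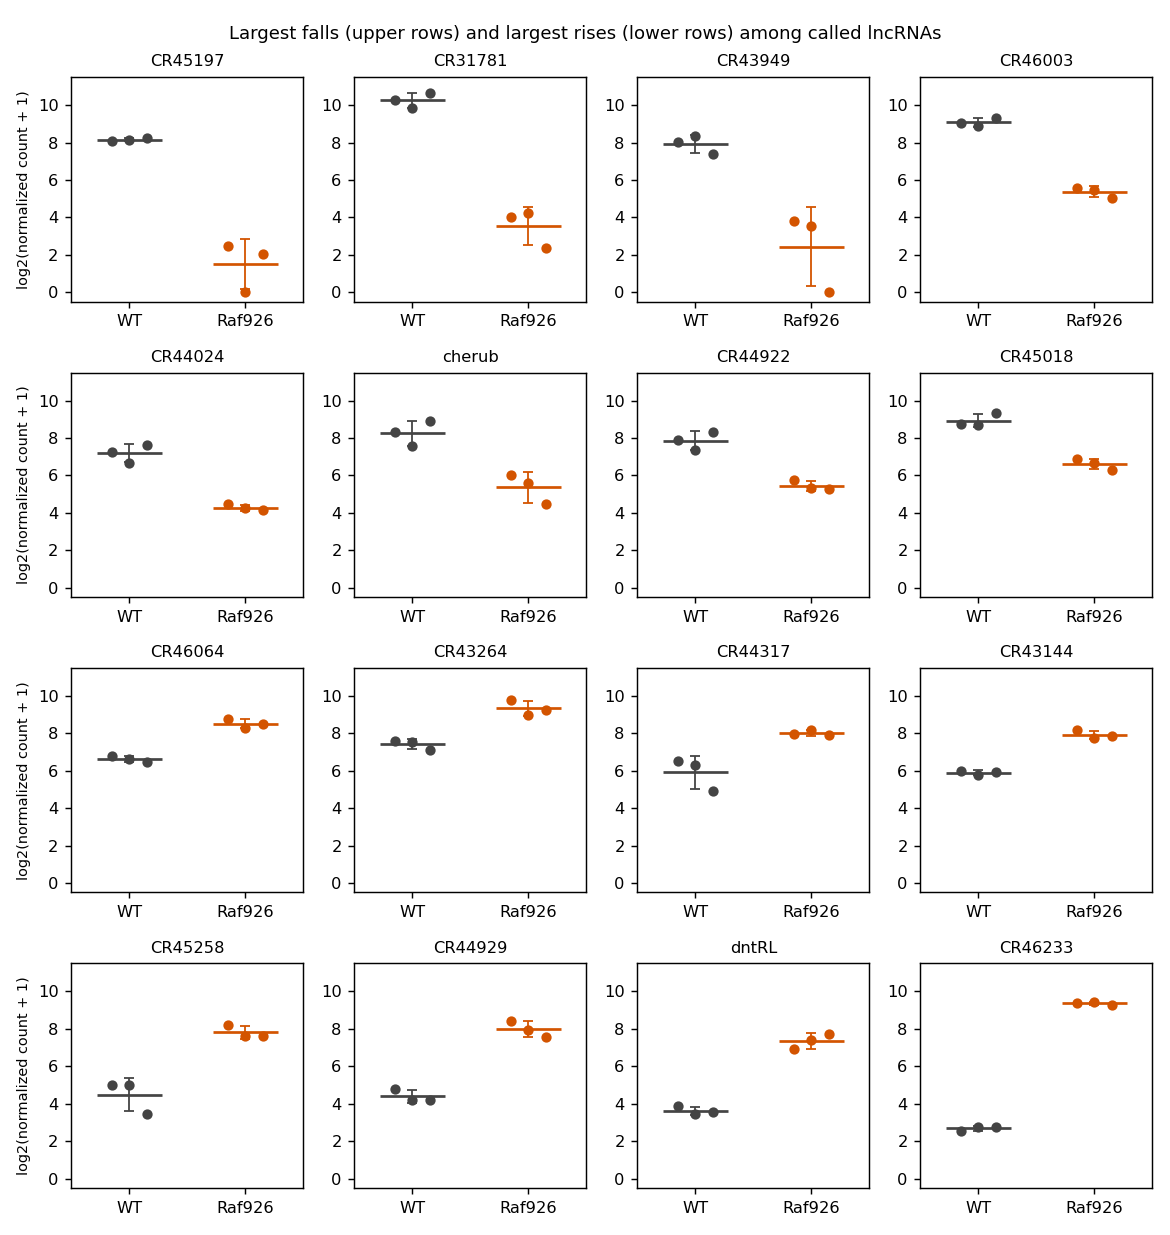
Log2(normalized count + 1) in each sample (points), with the mean and SD of the 3 samples per group (lines and bars), for the 8 largest falls (CR45197 to CR45018) and the 8 largest rises (CR46064 to CR46233) among called lncRNAs whose groups do not overlap. CR45197 and CR43949 each reach 0 in 1 Raf926 sample, and the points of CR46233 in Raf926 lie closest together. Only CR45018, CR43264 and CR46064 have group means of at least 2 CPM in both groups.

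Of the 11 members that carry a name in place of a CR number, 6 fell (cherub, iab4, mimi, CRG, marge and Hsromega), 3 rose (dntRL, yar and alphagamma-element) and 2 were not called (bxd and iab8). Of all genes tested, 26.9% were called lower and 22.7% higher. Cherub was over 2 CPM in WT only and dntRL in *Raf926* only, so these had to differ, and the counts show no trait of named lncRNAs. Mimi was at 599.8, 455 and 955 normalized counts in WT and at 235, 255 and 176 in *Raf926* (log2 fold change −1.59, SE 0.30, adjusted p = 0.0029). CRG, which lies within the synaptic scaffold gene CASK and is known to act on it, was at 446, 338 and 655 and at 185, 249 and 202 (log2 fold change −1.18, SE 0.28, adjusted p = 0.0076). WT replicate 3 was the highest sample for both RNAs and no *Raf926* sample reached the WT range. All 2669 bases of CRG lie in CASK exons on the same strand, while CASK itself had a log2 fold change of 0.03 (adjusted p = 0.76).

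The abundant RNA marge was at 6105, 6328 and 5486 normalized counts in WT and at 4476, 2915 and 3496 in *Raf926* (log2 fold change −0.72, SE 0.16, adjusted p = 0.0058). Hsromega (FBgn0001234, 3R:21296127-21317836), which is induced by heat shock and organizes nuclear speckles that hold RNA-binding proteins, was at 4002, 4380 and 4224 and at 3227, 2385 and 2373 (log2 fold change −0.66, SE 0.14, adjusted p = 0.0044). In both, *Raf926* replicate 1 was nearest to WT but below it. These falls are close to the 1.5-fold limit: leaving out *Raf926* replicate 2 gave −0.55 for marge and −0.55 for Hsromega on the log2 scale, and leaving out *Raf926* replicate 3 gave −0.58 for Hsromega, all under the limit.

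Yar, transcribed between yellow and achaete and known for a role in sleep, was at 219, 188 and 222 normalized counts in WT and at 493, 327 and 370.0 in *Raf926* (log2 fold change 0.92, SE 0.22, adjusted p = 0.0081). The groups did not overlap. The alphagamma-element, a transcript of a heat shock locus that lies 7560 bases from Hsp70Ba, was at 60.9, 100.3 and 48.3 and at 155, 98.6 and 119.8 (log2 fold change 0.83, SE 0.35, adjusted p = 0.073). WT replicate 2 lay above *Raf926* replicate 2, and the call was lost without WT replicate 1 (adjusted p = 0.19), WT replicate 3 (0.15), *Raf926* replicate 1 (0.21) or *Raf926* replicate 3 (0.13). Hsp70Ba, a gene of the inducible chaperone, was at 57.1, 55.5 and 29.2 normalized counts in WT. In *Raf926* it was at 408, 147 and 148, with replicate 1 far above the others. Its log2 fold change of 2.31 (adjusted p = 0.0053) had the opposite sign to Hsromega, but a single gene does not stand for the heat shock genes.

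In the bithorax complex, 3 members lie between Ubx and Abd-B. Iab4 (3R:16850004-16856497, plus strand) and iab8 (3R:16831116-16923231, minus strand) are transcribed across the same regulatory region in opposite directions and give rise to the microRNAs mir-iab-4 and mir-iab-8, which repress Hox genes, and bxd (3R:16742125-16773189, minus strand) is transcribed upstream of Ubx. Iab4 was at 259, 265 and 199 normalized counts in WT and at 108, 56.6 and 71.5 in *Raf926* (log2 fold change −1.61, SE 0.30, adjusted p = 0.0028). Its groups were well apart. Exons of iab4 overlap exons of another gene on the opposite strand, and exons of iab8 overlap those of other genes on both strands. Strand-specific counting is not stated, so reads there could belong to either gene.

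Iab8 was at 304, 342 and 294 in WT and at 255, 269 and 178 in *Raf926*, where the groups were separate but the log2 fold change of −0.42 (SE 0.22, adjusted p = 0.14) did not pass the test. Bxd was at 169, 189.9 and 138 and at 142, 124 and 84.1, with overlap (log2 fold change −0.51, SE 0.28, adjusted p = 0.15). The Hox genes around them fell, Ubx from 2776, 3315 and 2954 to 1004, 557 and 794 (log2 fold change −1.94, SE 0.21) and Abd-B from 2470.8, 2961 and 2940.3 to 746, 858 and 666 (log2 fold change −1.88, SE 0.14). Abd-A, added after its values were seen, fell by 0.66 on the log2 scale (SE 0.17, adjusted p = 0.013). Whether iab4 differed from iab8 in its response was not tested.

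The files also give a length for each gene, averaged over its transcripts by their estimated abundance, which moves only when the mix of transcripts does. For iab4 this length was 3431, 4070.4 and 3567 bases in WT and 2359.7, 2703 and 2684 in *Raf926*, and for iab8 it was 2318, 2370.3 and 2352 and 1858, 1938 and 2087. Both were shorter in every *Raf926* sample, with a difference between the means, *Raf926* minus WT, of −1107 bases for iab4 and −386 for iab8. Among 37 members with more than 1 transcript and at least 10 counts in every sample, the lengths of the groups did not overlap for 15, 40.5%, beside 38.8% of 5981 such genes, and for 5 the means were also over 1.1 times apart, 13.5% beside 4.11%. Besides iab4 and iab8 these were CR44929 (656 ± 14.6 bases in WT against 576 ± 2.19 in the mutant, mean ± SD of 3 samples), CR31044 (2583 ± 67.9 and 3168 ± 473) and CR44317 (1030.2 ± 29.0 and 1144 ± 40.4). These lengths rest on RSEM's division of reads among overlapping transcripts, no test was made of them, and the measure was chosen after the counts had been seen. Some rest on few reads: CR44929 had 28, 18 and 21 counts in WT, and CR44317 had 35 in WT replicate 3. The shares of 13.5% and 4.11% were not matched for depth.

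Members that hold a microRNA precursor on their strand numbered 7, of which 1 rose, 3 fell and 3 were not called. Of all genes tested, 22.7% were called higher and 26.9% lower, and 7 genes are too few to set apart from these shares. CR31044 (3R:29214562-29219667), which holds mir-279 and mir-996, microRNAs known for restricting the number of carbon dioxide sensing neurons, was at 263, 311 and 299 normalized counts in WT and at 105, 159 and 124 in *Raf926* (log2 fold change −1.17, SE 0.23, adjusted p = 0.0038). The groups were clearly separate. CR43836, which holds mir-31b, was at 125, 81.8 and 60.0 and at 148, 195 and 211 (log2 fold change 1.06, SE 0.33, adjusted p = 0.025), the only riser of the 7.

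CR43459, which holds mir-34 and mir-277, microRNAs studied in ageing, was at 125, 82.8 and 209 in WT and 101, 94.4 and 85.1 in *Raf926* (log2 fold change −0.57, SE 0.36, adjusted p = 0.20). CR43650, which holds mir-8, a regulator of growth, was at 163, 114.9 and 178 and at 206, 174 and 133 (log2 fold change 0.17, SE 0.27, adjusted p = 0.61). Both overlapped, and the spread within WT exceeded the difference. The other holders were iab4, iab8 and Hsromega, the last with mir-4951. The microRNA precursor genes themselves were listed at 0 in every sample with an effective length of 0, so the microRNAs were not measured in these libraries.

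Small nucleolar RNAs, which guide the modification of ribosomal RNA, lie within 2 members. CR42491 (X:762615-763810), which holds 1 of them and shares 377 bases with the ribosomal protein gene RpL22, was at 1442, 1491 and 1671 normalized counts in WT and at 584, 342 and 533 in *Raf926* (log2 fold change −1.66, SE 0.21, adjusted p = 4.8e-04). RpL22 did not pass the test (log2 fold change 0.11, adjusted p = 0.37). CR45184, which holds 5 and shares 2508 bases with the splicing factor gene Sf3b3, was at 4083.5, 4354 and 4283 and at 2879, 3831 and 3051, separate but under the fold limit (log2 fold change −0.38, SE 0.12, adjusted p = 0.029).

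**Figure D3:**
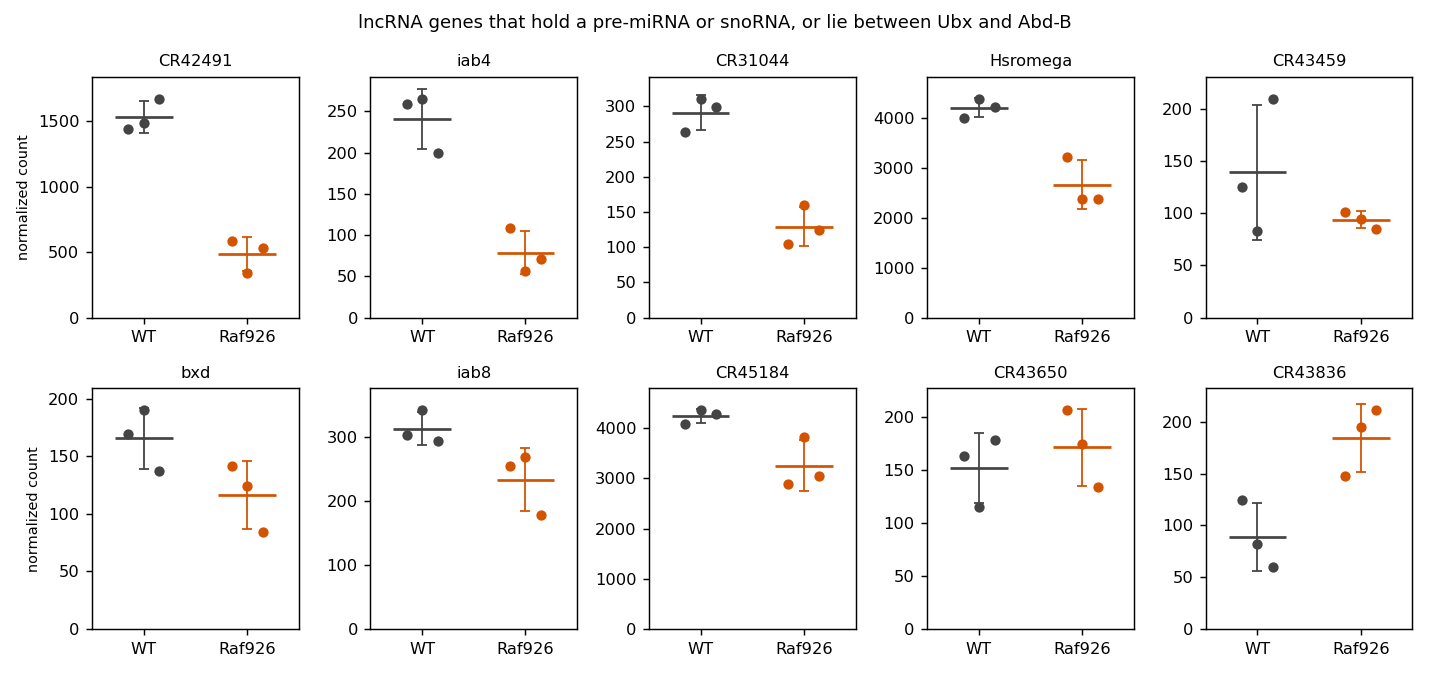
Normalized counts in each sample (points) with the mean and SD of 3 samples per group (lines and bars) for the 10 lncRNAs that hold a microRNA precursor or a small nucleolar RNA or lie between Ubx and Abd-B, each axis starting at 0. CR42491, iab4, CR31044 and Hsromega are called down and CR43836 up, while CR43459, bxd, iab8, CR45184 and CR43650 are not called.

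The remaining members named for their level or their place at the threshold were spread over both directions. CR43887 was at 1711, 2055 and 832 normalized counts in WT and at 1097, 932 and 807 in *Raf926* (log2 fold change −0.70, SE 0.31, adjusted p = 0.083). WT replicate 3 lay inside the *Raf926* range, and CR43887 was called in only 2 of the 6 fits that leave out a sample. CR30055, in an intron of the corepressor gene Sin3A, was at 871, 835 and 760.1 and at 1576, 1905 and 1758.5 (log2 fold change 1.09, SE 0.12, adjusted p = 3.1e-04), with even replicates in both groups. CR42549 was at 1332, 1271 and 1301 and at 1799.7, 1649 and 1878 (log2 fold change 0.45, SE 0.10, adjusted p = 0.0069), separate but under the fold limit. At the threshold, CR32027, CR32368 and CR45570 had log2 fold changes of 1.24, 1.22 and 1.37, but all were over 2 CPM in *Raf926* only and so had to be higher there.

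The members differed in structure and position, which the rule did not use. Their exonic length was between 318 and 21710 bases with a median of 1449.5, 24 had 1 exon, 25 had 2 and 21 had 3 or more, up to 8. Of the 24 with 1 exon, 6 rose and 10 fell, or 25% and 41.7%, and of the 46 with more, 21 rose and 12 fell, or 45.7% and 26.1%, beside 22.7% and 26.9% of all genes tested. With group means of at least 2 CPM in both groups, 3 of 17 members with 1 exon rose and 6 fell, and 14 of 32 with more rose and 6 fell. Between genes lay 33 members, 13 of which rose and 14 fell. Inside or around the introns of another gene lay 12, of which 8 rose (yar, CR30055, CR32027, CR43264, CR43496, CR43961, CR44918 and CR45138), 0 fell and 4 were not called, with a median log2 fold change of 0.83. These are 66.7% and 0%, beside the same 22.7% and 26.9% of all genes tested, and 7 of the 11 with at least 2 CPM in both groups rose. The share for all genes within introns was not computed. The calls of CR43496 and CR44918 were lost with library size alone, where CR43496 had a log2 fold change of 0.53, and CR44918 was called in only 3 of the 6 fits that leave out a sample.

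Exons of 25 members overlapped exons of another gene, 14 on the same strand (3 rose, 4 fell), 6 on the opposite strand (2 rose, 3 fell) and 5 on both (1 rose, 1 fell), and reads there could belong to either gene. The 45 members without such overlap had 21 rises and 14 falls, or 46.7% and 31.1%, beside 22.7% and 26.9% of all genes tested, and 12 rises and 8 falls among the 30 with at least 2 CPM in both groups. Their median log2 fold change was 0.48, beside −0.05 for all 70 and −0.04 for all genes tested.

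By chromosome, 16 members lie on X, where 10 rose and 3 fell, or 62.5% and 18.8%, beside 24.7% and 25% of 1884 tested genes on X. The X-linked members that rose were CR43496, CR45102, yar, CR44779, CR43961, CR43836, CR44766, CR43837, CR42861 and CR43264, with log2 fold changes from 0.73 to 1.96. Those that fell were CR45197, CR45018 and CR42491, each of which shares exon sequence with a coding gene on its strand. So does CR44766 among those that rose (154 bases with ras), and exons of CR43836 and CR44779 also overlap exons of other genes. Of the 13 X-linked members with at least 2 CPM in both groups, 9 rose and 2 fell. Off the X, 17 of 54 members rose and 19 fell, beside 2166 and 2645 of 9684 tested genes there. The largest group, on 3R, had 7 rises and 9 falls among 22, or 31.8% and 40.9%, beside 22.3% and 26.9% of all tested genes there, and 3L had 2 and 5 among 13, or 15.4% and 38.5%, beside 23.9% and 26.9%. The 2 members on chromosome 4 were over 2 CPM in WT only, so that their falls say nothing about the chromosome. X is the chromosome that carries Raf and came from a different stock in *Raf926*, and how far strain differences on it contribute was not tested.

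**Figure D4:**
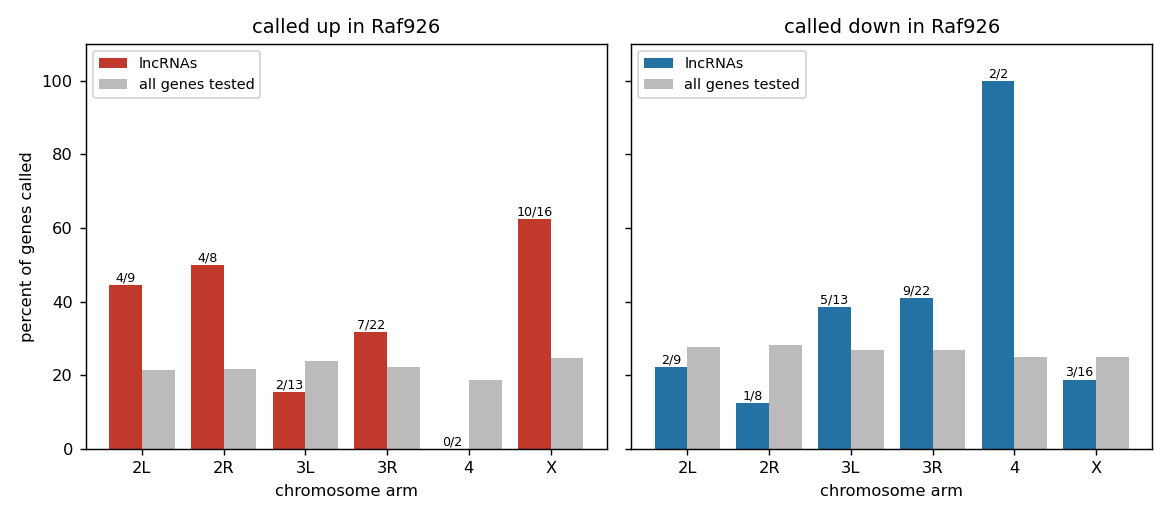
Percent of genes called up (first panel) and down (second panel) in Raf926 by chromosome arm, for the lncRNAs (coloured bars, with called and total numbers) and all genes tested on the arm (grey bars). The X bar for lncRNAs called up stands at 62.5% over 24.7% for all genes, and the chromosome 4 bar for lncRNAs called down rests on 2 genes that reach 2 CPM in WT only.

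Each member was set beside the coding gene that overlaps it or, where none does, the nearest one. Of 63 members whose partner was tested, 29 pairs (46.0%) had the same sign, and over the 46 pairs that share no exon it was 23 (50%). Across the 63 pairs Pearson's r was 0.30 and Spearman's rho 0.03, as a description over genes from the same 6 libraries, and without CR46233 and TwdlS r was 0.03. Both genes were called in 18 pairs, 12 of them in the same direction, including CR46233 with TwdlS, CR44929 with Gasp and CR43949 with Notum. CR46233, CR44929 and CR43949 were over 2 CPM in 1 group only. CR45197 with sgg and CR43264 with CG15765 went opposite ways. The direction was the same in 9 of 10 such pairs with the partner beside and in 3 of 8 with overlapping spans. The share for neighbouring genes in general was not computed. In 9 pairs the genes start head to head within 1000 bases, and 4 of these had the same sign. For the 175 rarer lncRNA genes with a tested partner, 113 pairs (64.6%) had the same sign.

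**Figure D5:**
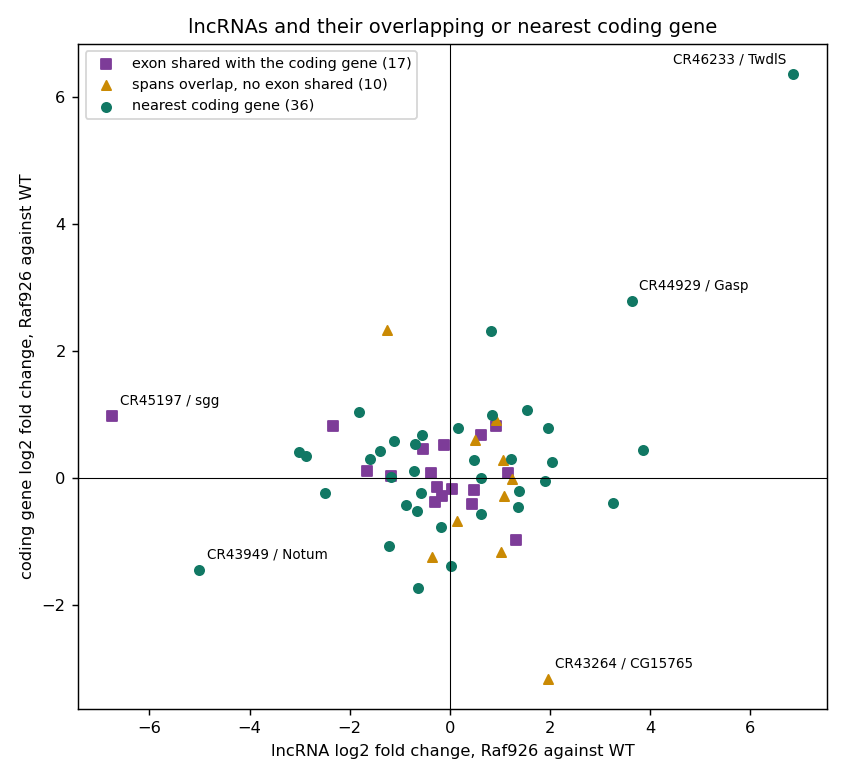
Log2 fold change in Raf926 against WT of 63 lncRNAs (horizontal axis) and of the coding gene paired with each (vertical axis), with squares for pairs that share exon sequence, triangles for overlapping spans without shared exons and circles for nearest genes. CR46233 with TwdlS (6.86 and 6.36) stands far from the rest, which spread over all 4 quadrants.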

How the data were processed

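Per the labels, the material was total RNA of dechorionated embryos, read in paired 151-base reads. The study prepared its libraries from total RNA but describes the sequenced RNA as mRNA. How RNAs were selected is not stated, so some lncRNAs may be captured poorly, which was not tested. The authors aligned reads with STAR 2.7.1a to BDGP6.22 (Ensembl 97) and deposited expected counts and TPM per gene from RSEM 1.3.1, without pooling or filtering. Of the expected counts, 11.5% were not whole, and all were rounded. Names and coordinates came from BDGP6.54 (Ensembl 115), a later annotation, which matched 17587 of 17714 identifiers. The transcripts of 68 of the 70 members were the same in both, all but CR46003 and CR32368. After removal of 390 rRNA, snoRNA and snRNA genes and of genes with a mean under 10 counts, 11568 genes were fitted with edgeR 4.0.16 (R 4.3.3), using TMM normalization and the quasi-likelihood test with Benjamini-Hochberg adjustment. Calls needed a Benjamini-Hochberg p below 0.1 with more than 1.5-fold change, the thresholds of the study, which used DESeq2 (1.42.0 here, as an alternative). Normalized counts are counts divided by TMM-scaled library sizes, at the mean library size, and CPM divide by the total expected count. The SE was taken as the log2 fold change over the square root of F, and the fit was tested on simulated data. Counting error covers reads, not molecules. The study calls the replicates biological, and they differed by far more than sampling noise.

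Strand-specific counting is not stated. GC content was not computed and no sequence is shown, since no genome was used here. The members and gene lists were chosen with earlier results of these data known. Members were named by rule: a name other than a CR number, a microRNA precursor or snoRNA inside or a place between Ubx and Abd-B, the 8 largest rises and falls among called members without overlap, the 10 highest mean TPM, and the 3 on either side of the threshold. Others are named only in counts, after their values were seen. Marker lists were for neurons, muscle, germ cells, maternal transcripts, blood cells, epidermis, eggshell, midgut and early zygotic genes. Alternatives were other normalizations, filters, thresholds and membership limits, DESeq2, a replicate block and leaving out each sample.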

Additional observations from a re-analysis of the deposited data

How the results depend on the processing

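Of the 49 called members, 41 were called in all 6 fits that leave out 1 sample and 40 in all 14 alternative fits, and none of the 49 changed sign. The count of calls was 43 to 48 with a sample left out, 49 with the DESeq2 Wald test, 48 (22 up, 26 down) with library size alone and 47 (22 up, 25 down) with upper-quartile normalization. Library size alone moved the median of all genes by −0.20, and the members' median to −0.25, with −0.21 for upper-quartile normalization. It was −0.17 to 0.06 with a sample left out and 0.48 for members without exonic overlap. Membership at 1 CPM gave 83 calls among 118 genes (44 up, 39 down, 70.3%), at 5 CPM 27 among 37 (13 up, 14 down, 73%) and at 2 CPM in both groups 29 among 49 (59.2%), beside 70% of the 70 members and 49.7% of all genes. A test against a 1.5-fold change gave 37. The uncalled CR43650 had a log2 fold change of −0.035 with library size alone and a range of −0.044 to 0.32 with a sample left out, and the uncalled CR34335 a range of −0.64 to 0.023, negative in the other fits but positive without WT replicate 1. The cause was not tested. Bxd was called with library size alone (log2 fold change −0.70) and upper-quartile normalization (−0.66), iab8 with library size alone (−0.62) and CR43459 without WT replicate 2 (−0.89). Beside marge, Hsromega, CR43887 and alphagamma-element, calls were lost in some fits with a sample left out for CR45559, CR44918, CR43301 and CR46268. Same-numbered samples did not deviate together (correlations −0.046, −0.20 and −0.19), so the numbers do not pair samples, and with a replicate block 45 members were called (24 up, 21 down) with a median of −0.09. Depth limits the lowest values: CR45197 and CR43949 fell to 0 counts in 1 sample each, and their fold changes rest on few reads in *Raf926*.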

Other observations

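Among the 203 rarer lncRNA genes under 2 CPM that were tested, 130 were called, 78 up and 52 down, or 64%, with a median log2 fold change of 0.26. Genes annotated as antisense RNAs, which carry a symbol prefix of their own and were not members, had 96 calls among 231, or 41.6%, 50 up and 46 down, with a median of −0.13. Among protein-coding genes 5374 of 10902 were called, or 49.3%. The share without overlap between the groups was 66% for the rarer lncRNA genes and 45.5% for the antisense genes. These shares were not tested against each other, and the classes differ in level and in their overlap with other genes. Replicates varied by a median coefficient of variation of 15.9% in WT and 18.0% in *Raf926* over the 70 members.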
